A study of Mus musculus with 6 samples.

Results

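The 6 libraries of this series, total RNA from mouse large intestine on 1 array each, were sorted by their own level of Hoxb13 into a high side and a low side of 3 libraries each, and the 18193 genes of the array were then described across the sides. The members are all 6 of the 6 libraries. The sorting is by a measured value and not by a label: the sides were chosen by the Hoxb13 value of each library, which went to the high side where the only Hoxb13 probe set read above 10 on the log2 scale, and to the low side where it read below 10. The high side holds the libraries labelled proximal 1, distal 1 and distal 2, and the low side those labelled proximal 2, proximal 3 and distal 3, so each side mixes both labels. No value lay near that cutoff: the value nearest above it was 13.29 (distal 2) and the value nearest below it 6.65 (distal 3). The level that set the sides is a description, and no mean, error or test over a side is given for any gene. The labels were kept as deposited: each library is called by its label (proximal 1 stands for the library labelled proximal 1), and no library is assigned to another region.

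The study compared proximal with distal colon in untreated female C57BL/6J mice, an inbred strain with no engineered allele named in the labels. Each label has 3 libraries, and by the series' design text both regions came from the same 3 animals, without saying which numbers share an animal. The sources used here give no age, no boundary between the sections and no count of cell types. In such bulk tissue, fewer cells of a type and less RNA per cell cannot be told apart.

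The colon is patterned from its proximal to its distal end. Hox genes, which encode homeodomain transcription factors and lie in 4 genomic clusters named A to D, are used in an order along the body axis that follows their order in the cluster, and the genes of the last paralog groups, Hoxb13 among them, mark the hindmost gut. The proximal end is known for genes shared with the ileum, such as those of bile acid and lipid uptake, and the distal end for salt retention driven by aldosterone and for its own set of mucin sugar chains.

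Defining markers of colon were bright in every library. Car1, a carbonic anhydrase of colonic surface cells, read from 13.93 to 14.75, Slc26a3, the colonic chloride-bicarbonate exchanger, from 14.04 to 14.29, and Muc2, the main gut mucin, from 13.94 to 14.40. Cdx2, the transcription factor that specifies intestine, read from 13.30 to 14.38. Markers of small intestine are given with the bile acid and lipid genes, since 15 of the 19 measured were higher on the low side. Array medians over genes ran from 9.23 to 9.36. RMA gives no counts, so the number of arrays limits the precision.

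Promoter sequences are shown for the gene with the widest separation in each direction, because these are the genes whose levels most sharply part the 6 libraries. They come from RefSeq (GRCm38.p6), run from 250 bases before to 50 bases after the gene's start, 5′ to 3′ on the gene's strand, and lie at chr2:74667975-74668274 on the plus strand for Hoxd13 and chr16:32487830-32488129 on the minus strand for Slc51a. Capitals mark any match to CAATAAA, letters that posterior Hox and Cdx proteins can bind, or to CAAAGTCC, letters that Hnf4 receptors can bind, on either strand. The motifs do not overlap each other.
Hoxd13: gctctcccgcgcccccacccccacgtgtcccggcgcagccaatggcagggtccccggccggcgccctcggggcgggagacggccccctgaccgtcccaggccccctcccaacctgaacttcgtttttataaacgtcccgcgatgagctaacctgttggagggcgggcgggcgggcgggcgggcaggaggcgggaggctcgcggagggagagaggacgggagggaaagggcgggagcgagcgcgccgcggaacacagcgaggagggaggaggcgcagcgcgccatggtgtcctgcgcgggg
Slc51a: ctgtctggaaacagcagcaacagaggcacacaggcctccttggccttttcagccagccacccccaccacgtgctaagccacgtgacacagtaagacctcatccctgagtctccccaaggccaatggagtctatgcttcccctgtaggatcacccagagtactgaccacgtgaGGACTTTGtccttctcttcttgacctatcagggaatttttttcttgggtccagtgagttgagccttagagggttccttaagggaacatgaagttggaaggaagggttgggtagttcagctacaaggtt
The Hoxd13 window held no match and the Slc51a window held 1, the reverse complement of CAAAGTCC. Of the 12 genes with the widest separation in each direction, 8 on the high side and 11 on the low side have an entry in the promoter table. CAATAAA was found in 1 of the 8 (Casp14) and 0 of the 11, against 4.84% of all 27025 promoters. CAAAGTCC was found in 0 of the 8 and 1 of the 11 (Slc51a), against 1.44% of all promoters. A match is a string of letters and not a site shown to be bound.

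Hoxb13 itself read 13.39, 13.78 and 13.29 in proximal 1, distal 1 and distal 2, and 6.53, 6.48 and 6.65 in proximal 2, proximal 3 and distal 3. The low values lie near 6.54, the lower quartile over genes and libraries, where signal from background can hide a lower level. By number, both libraries numbered 1 were high, both numbered 3 were low, and number 2 was the only one whose distal library was high and whose proximal library was low. As labelled, distal minus proximal was 2.44 (SE 2.58, limma adjusted p = 0.833), and the labelled groups overlapped. For Hoxb13 the libraries labelled distal averaged 11.24 ± 3.98 (SD, n = 3), and those labelled proximal averaged 8.80 ± 3.98 (SD, n = 3).

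A gap was computed for each gene as the lowest value on the higher side minus the highest value on the lower side, so that it is above 0 only where the 3 values of each side do not overlap. It compares the nearest libraries and is therefore smaller than a difference of means. Of 18193 genes, 3069 (16.9%) had a gap in favour of the high side and 4315 (23.7%) in favour of the low side, together 40.6%. A gap of at least 1 log2 unit, a 2-fold distance between the nearest libraries, was found for 195 genes (1.07%) higher on the high side and 268 (1.47%) higher on the low side, together 463 genes (2.54%). A gap of at least 2 units was found for 64 and 76 genes, and one of at least 4 for 17 and 12. These shares were partly fixed by the choice of sides and support nothing about them. They serve as the background for the counts of gene groups below.

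In 10809 of the 18193 genes the sides overlapped. Across all genes the median range of 3 values was 0.30 on the high side and 0.18 on the low side, and over the 463 genes, which were chosen for a gap of at least 1, it was 0.49 and 0.33. Several probe sets were present for 184 of the 463 genes, and they pointed the same way in 166. In 99 of the 463 every value of the dimmer side was below 6.54, so their gaps are at best lower bounds. None of the 463 had an unadjusted p under 0.05 in the comparison as labelled, since each label has libraries on both sides. That comparison called 0 of 18193 genes (0%, limma, adjusted p threshold 0.05), with 554 at an unadjusted p under 0.05 (3.05%).

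**Figure D1:**
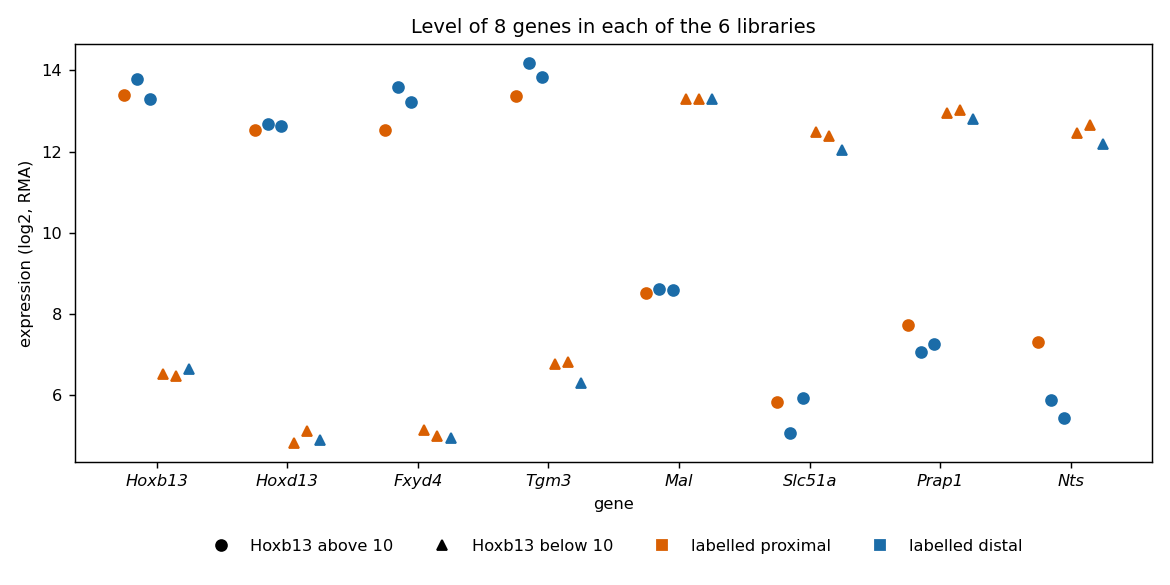
Log2 level (RMA, vertical axis) of 8 genes in each of the 6 libraries. Circles are libraries with Hoxb13 above 10 and triangles those below, orange is labelled proximal and blue labelled distal. Hoxb13, with 13.29 or more against 6.65 or less, set the sides, and the other genes were picked from those with the widest gaps. That circles and triangles stand apart in every gene while the colours mix was therefore fixed by the choice of genes.

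Any pair of libraries can be compared by the number of genes that differ at least 2-fold. Within a side this number ran from 25 (proximal 2 and proximal 3) to 236 (proximal 1 and distal 2), with a median of 179 over 6 pairs. Across the sides it ran from 928 (proximal 1 and distal 3) to 1434 (proximal 3 and distal 2), with a median of 1205 over 9 pairs. Both libraries whose label is in the minority on their side, proximal 1 and distal 3, thus formed the closest pair across the sides. Proximal 1 differed from distal 1 by 233 genes and distal 3 from proximal 2 by 143. The low side was the tighter one where the labels match: 25 genes between proximal 2 and 3, against 176 between distal 1 and 2.

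**Figure D2:**
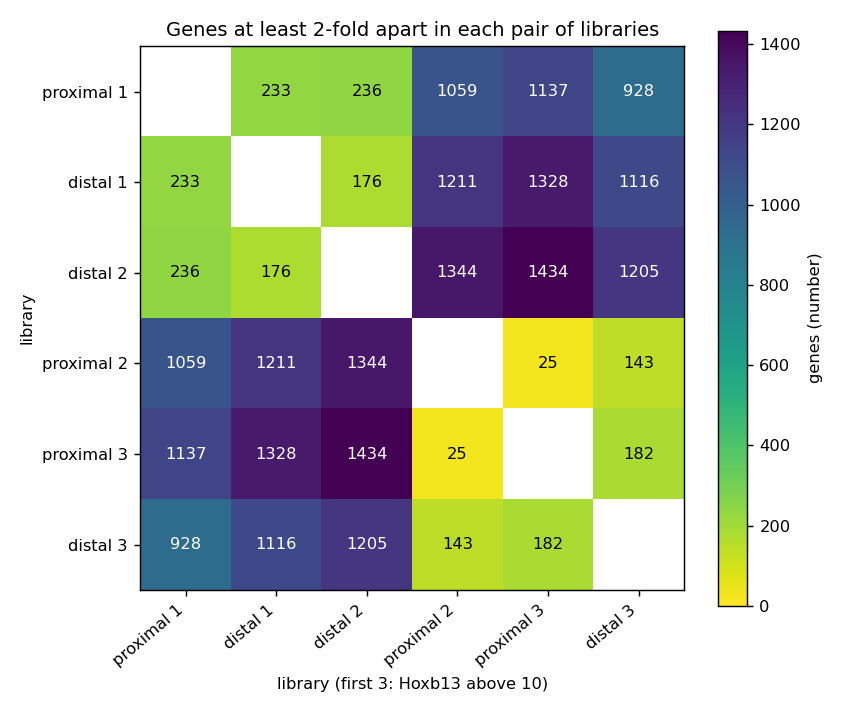
Number of genes at least 2-fold apart in each of the 15 pairs of libraries, in cells and on the colour scale, with the 3 libraries with Hoxb13 above 10 first. The pairs within a side lie between 25 and 236 genes and the pairs across sides between 928 and 1434.

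The widest gaps in favour of the high side, after Hoxb13 itself was set aside, were those of Hoxd13, Fxyd4, Tgm3 and Atp12a, each more than 5 log2 units. Hoxd13, the D cluster paralog of Hoxb13, read 12.54, 12.69 and 12.62 in proximal 1, distal 1 and distal 2, and 4.83, 5.11 and 4.90 in proximal 2, proximal 3 and distal 3, a gap of 7.43. Its 3 high values lay within 0.15 of each other, and proximal 1 was not apart from the distal libraries. Fxyd4, a regulator of the sodium pump, read 12.53, 13.60 and 13.21 against 5.14, 4.99 and 4.96 in the same order, a gap of 7.39. Here proximal 1 was the lowest of the high libraries, 0.68 below distal 2. Tgm3, a transglutaminase that cross-links proteins, read 13.36, 14.18 and 13.83 against 6.77, 6.82 and 6.30 (gap 6.54), and again proximal 1 was the lowest of its side.

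Atp12a, the colonic proton-potassium pump, read 13.11, 13.71 and 13.35 on the high side in the order proximal 1, distal 1 and distal 2, and 6.93, 6.10 and 7.25 on the low side in the order proximal 2, proximal 3 and distal 3. Insl5, a relaxin-family hormone made by enteroendocrine cells, read 12.76, 12.98 and 12.54 against 6.95, 7.0 and 6.39, with no overlap and a gap of 5.54. The other genes among the 12 widest were Sval1 (gap 5.70), the serine protease Tmprss13 (5.33), the caspase of keratinising cells Casp14 (5.25), the fucosyltransferase Fut9 (5.04), the matrix protein thrombospondin 4, Thbs4 (4.75), and the cytochrome P450 Cyp2f2 (4.62). All probe sets of Hoxd13, Tgm3 and Fut9 pointed one way, those of Casp14 did not, and the other genes of the 12 have a single probe set.

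On the low side the widest gaps were those of Slc51a, Prap1, Nts and Ugt8a. Slc51a, one chain of the transporter that carries bile acids out through the basolateral membrane, read 5.83, 5.07 and 5.94 in proximal 1, distal 1 and distal 2, and 12.47, 12.39 and 12.05 in proximal 2, proximal 3 and distal 3, a gap of -6.11 (negative where the low side is higher). Its probe set may match several transcripts. Prap1, a secreted acidic protein of gut epithelium, read 7.73, 7.06 and 7.27 against 12.95, 13.03 and 12.81 (gap -5.08). Mal, a membrane protein of apical transport, read 8.53, 8.62 and 8.60 against 13.30, 13.29 and 13.29, with ranges of 0.09 and 0.01 within the sides and a gap of -4.67.

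Nts, which encodes the gut peptide neurotensin, read 7.32, 5.88 and 5.45 against 12.45, 12.65 and 12.19. The gap was -4.87, and proximal 1 was 1.44 above the distal libraries of its side. Ugt8a, a galactosyltransferase of ceramide, read 4.65, 4.37 and 4.13 against 10.66, 10.76 and 9.52, where distal 3 was 1.14 below the other low libraries. Muc16, a membrane mucin, read 4.81, 4.83 and 4.95 against 9.56, 9.54 and 10.62, where distal 3 was the highest. The rest of the 12 were the peroxisomal thiolase Acaa1b (gap -4.80), Epop (-4.65), the glucuronosyltransferase Ugt2b5 (-4.34), the sulfate transporter Slc26a1 (-4.30), the cytochrome P450 Cyp3a25 (-4.28) and the carboxylesterase Ces1g (-4.24). Probes for Cyp, Ugt and Ces genes can pick up close relatives in the same family.

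Hox genes parted the sides in both directions. In the B cluster the only gene higher on the high side was Hoxb13. Measured Hox genes numbered 33. Hoxb13 set the sides, so its gap was fixed by the choice. Beside it, 3 had a gap of at least 1 in favour of the high side: Hoxd13, Hoxa13 (gap 1.35) and Hoxd11 (1.13). In favour of the low side there were 9: Hoxb6 (-3.73), Hoxb4 (-2.41), Hoxc10 (-2.28), Hoxb3 (-2.18), Hoxc8 (-1.86), Hoxb5 (-1.83), Hoxd8 (-1.68), Hoxd3 (-1.37) and Hoxb2 (-1.29). These counts stand beside the 1.07% and 1.47% of all genes. Hoxb6 read 7.0, 6.72 and 7.72 in proximal 1, distal 1 and distal 2, and 11.45, 11.60 and 11.58 in proximal 2, proximal 3 and distal 3. Hoxb4 read 7.99, 8.02 and 8.22 against 10.63, 10.73 and 10.75 in the same order.

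Neither gene put proximal 1 or distal 3 near its label. In the B cluster the genes from Hoxb2 to Hoxb6 were thus high where Hoxb13 was low, while Hoxb7 overlapped and Hoxb9 had a gap of -0.28. In the A cluster Hoxa13 read 7.22, 7.43 and 7.10 against 5.34, 5.40 and 5.75, and Hoxa2, Hoxa3 and Hoxa5 had gaps of 0.40, 0.30 and 0.18. Hoxa9 and Hoxa10, bright in all 6 libraries, overlapped. Among the other gut transcription factors, 27 of 30 measured, 4 had a gap of at least 1, all higher on the low side: Isx, a homeobox repressor of vitamin A genes (-3.42), the T-box factor Tbx3 (-1.90), Prdm1 (-1.37) and Gata5 (-1.26). Cdx2 had a gap of -0.56 and Cdx1 overlapped.

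**Figure D3:**
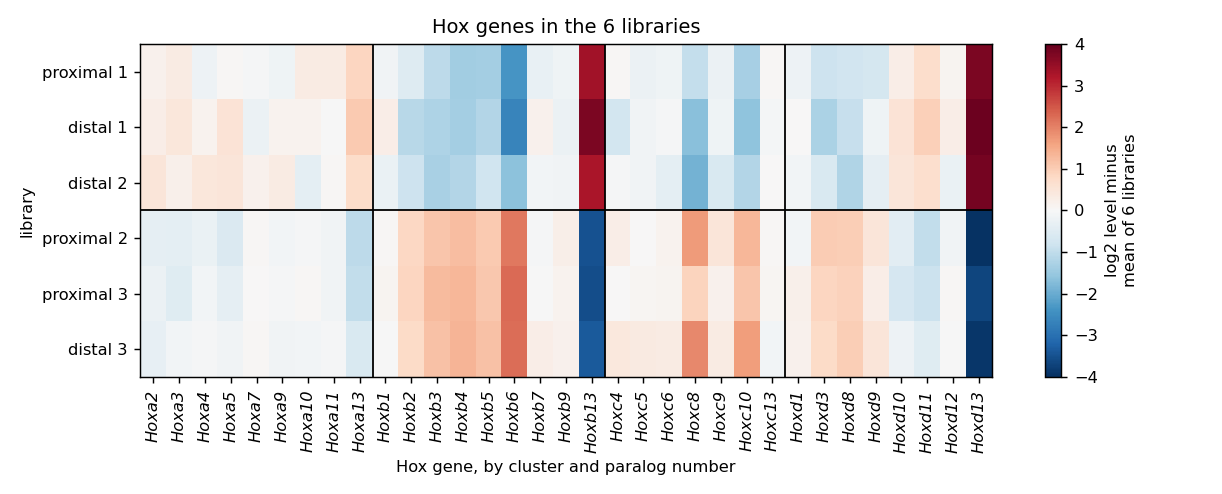
Level of 33 Hox genes in the 6 libraries as log2 difference from the gene's mean over the 6 libraries (red above, blue below); columns run by cluster A to D and paralog number, and the 3 libraries above the line have Hoxb13 above 10. Hoxb13, which set the sides, and Hoxd13 are red above the line. Hoxb2 to Hoxb6 are blue there, with Hoxb6 between 6.72 and 7.72 against 11.45 to 11.60.

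Bile acid, lipid and small intestinal genes were higher on the low side. The share of all genes with a gap in that direction was 23.7%, and 1.47% for a gap of at least 1. Of 13 measured bile acid genes, 8 had a gap in favour of the low side, 4 of them of at least 1, and 1 had a gap in favour of the high side. Beside Slc51a these 4 were Slc10a2, the apical bile acid transporter (-2.99), the bile acid binding protein Fabp6 (-1.93) and Slc51b, the partner of Slc51a (-1.31). Fabp6 read 10.35, 10.03 and 10.24 in proximal 1, distal 1 and distal 2, and 13.33, 13.06 and 12.28 in proximal 2, proximal 3 and distal 3. Distal 3 was the lowest of the low side here, by 0.78. Of 22 lipid absorption genes 14 had a gap in favour of the low side, 7 of at least 1, and 2 in favour of the high side. They include the apolipoprotein Apoa1 (-3.08), the acyltransferase Mogat2 (-3.01), the cholesterol transporter Npc1l1 (-2.30) and the fatty acid transport protein Slc27a2 (-1.86).

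The median of the difference between the middle libraries of the sides (high minus low) was -0.75 over the bile acid list and -0.95 over the lipid list, against -0.05 over all genes. Of 19 small intestinal epithelial markers 15 had a gap in favour of the low side, 7 of at least 1, and 0 in favour of the high side. Alpi, the intestinal alkaline phosphatase, read 8.69, 6.55 and 9.03 against 12.11, 12.04 and 11.99 (gap -2.96). Fabp2, the intestinal fatty acid binding protein, was bright in all 6 libraries, with 12.60 as its lowest value and a gap of -0.73, while the lactase gene Lct stayed between 6.18 and 6.48. The lists share genes, among them Slc10a2, Fabp6 and Apoa1.

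Drug-handling and oxidation genes were higher on the low side as well, with a few members the other way. Among all genes 23.7% had a gap in favour of the low side and 16.9% in favour of the high side. Of 40 xenobiotic metabolism genes 31 had a gap in favour of the low side, 12 of at least 1, and 5 in favour of the high side, 4 of at least 1. The high-side members were the cytochromes P450 Cyp2f2, Cyp2d12 (3.32), Cyp2c68 (3.10) and Cyp2d9 (1.52). Cyp2c68 read 12.20, 12.73 and 12.84 in proximal 1, distal 1 and distal 2 and 8.77, 9.10 and 8.51 in proximal 2, proximal 3 and distal 3, while its relative Cyp2c65 had a gap of -2.78. Of 24 genes of fatty acid oxidation 22 had a gap in favour of the low side, 3 of at least 1, namely Acaa1b, the pyruvate dehydrogenase kinase Pdk4 (-2.03) and the nuclear receptor Ppara (-1.13). The acyl-CoA synthetase Acsm3 (1.24) went the other way.

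Of 24 respiratory chain genes 20 had a gap in favour of the low side, with the widest at -0.40 for Ndufa10, a complex I subunit, and 0 reached 1. These were narrow separations in every member. For cell division 12 of 24 genes had a gap in favour of the low side and 0 in favour of the high side, the widest being Plk1, a mitotic kinase (-0.32). Across all genes 23.7% had a gap in favour of the low side and 16.9% in favour of the high side.

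Salt, water and nutrient transport split gene by gene. Over all genes 16.9% had a gap in favour of the high side and 23.7% in favour of the low side. For a gap of at least 1 these shares were 1.07% and 1.47%. In electrogenic sodium absorption, 5 of 14 genes had a gap in favour of the high side and 3 in favour of the low side, but only Fxyd4 reached 1. That low-side count lies near the share of all genes. The epithelial sodium channel subunits Scnn1g and Scnn1b had gaps of 0.40 and 0.22. In electroneutral transport 7 of 21 went each way, with Atp12a, the chloride and bicarbonate channel Best2 (1.99) and Ano1 (1.23) at least 1 higher on the high side, and the carbonic anhydrase Car13 (-1.33) and Clca4a (-1.29) on the low side. Aqp4, a water channel, read 13.89, 13.69 and 13.85 in proximal 1, distal 1 and distal 2, and 11.18, 11.37 and 12.03 in proximal 2, proximal 3 and distal 3, while Aqp11 had a gap of -1.19. Of 25 nutrient transporters 4 had a gap of at least 1, all in favour of the high side: the peptide transporter Slc15a1 (1.79), the amino acid transporter Slc36a1 (1.71), the calcium channel Trpv6 (1.37) and the folate transporter Slc46a1 (1.36).

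Genes that build mucin sugar chains were more often higher on the high side, with 17 of 32 genes showing a gap in its favour, 6 of at least 1, and 9 against it, 2 of at least 1. B3gnt7, which extends chains with N-acetylglucosamine, read 13.11, 13.28 and 13.12 in proximal 1, distal 1 and distal 2, and 8.87, 8.55 and 7.89 in proximal 2, proximal 3 and distal 3. The others were Fut9, B3gnt5 (2.66), the sialyltransferase St3gal6 (1.63), Gcnt1 (1.58) and B3galt5 (1.28), and on the low side the sialyltransferase St3gal1 (-2.23) and B4galnt1 (-1.41). For 17 goblet cell markers the gap favoured the high side in 5 and the low side in 0, all below 1, with Rep15 (0.90) the widest. By comparison, 16.9% of all genes had a gap in favour of the high side and 23.7% in favour of the low side.

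Of 20 enteroendocrine genes 5 had a gap in favour of the high side, 7 in favour of the low side and 8 overlapped. Those with a gap of at least 1 were Insl5 and the transcription factor Isl1 (1.83) on the high side and Nts and the secretin gene Sct (-3.34) on the low side. Of 18 colonocyte markers 13 had a gap in favour of the low side, 3 of at least 1, led by Tmigd1 (-2.33). Of 16 crypt base genes 7 had a gap in favour of the high side, among them Smoc2 (0.68) and Lrig1 (0.48). Another 4 had one in favour of the low side, of which only Olfm4 (-3.09) reached 1. For all genes these shares were 16.9% on the high side and 23.7% on the low side. The low-side count of crypt base genes lies near that share.

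Lymphocyte markers parted the sides in opposite directions. Beside them, 16.9% of all genes had a gap in favour of the high side and 23.7% in favour of the low side. Of 15 measured B and plasma cell genes 11 had a gap in favour of the high side, 5 of at least 1, and 0 in favour of the low side. Ms4a1, which encodes the B cell surface protein CD20, read 8.58, 9.09 and 8.90 in proximal 1, distal 1 and distal 2, and 6.78, 6.86 and 5.69 in proximal 2, proximal 3 and distal 3. The antigen receptor subunits Cd79b (1.44) and Cd79a (1.25) and the complement receptor Cr2 (1.30) followed. Of the same list Jchain, the joining chain of IgA, overlapped, and Mzb1 had a gap of 0.01. The summed signal of the list on the log2 scale ran from 14.06 to 14.70 on the high side and from 13.65 to 13.98 on the low side.

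Of 17 T cell and lymphocyte genes 11 had a gap in favour of the low side, 4 of at least 1, and 0 in favour of the high side. These 4 were the granzymes Gzmb (-1.82) and Gzma (-1.78), Cd7 (-1.29) and Cd8a (-1.13), of cytotoxic and intraepithelial lymphocytes. The median of the middle-library difference was 1.10 over the B cell list and -0.87 over the T cell list. How many cells of these types each piece of tissue held was not tested.

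**Figure D4:**
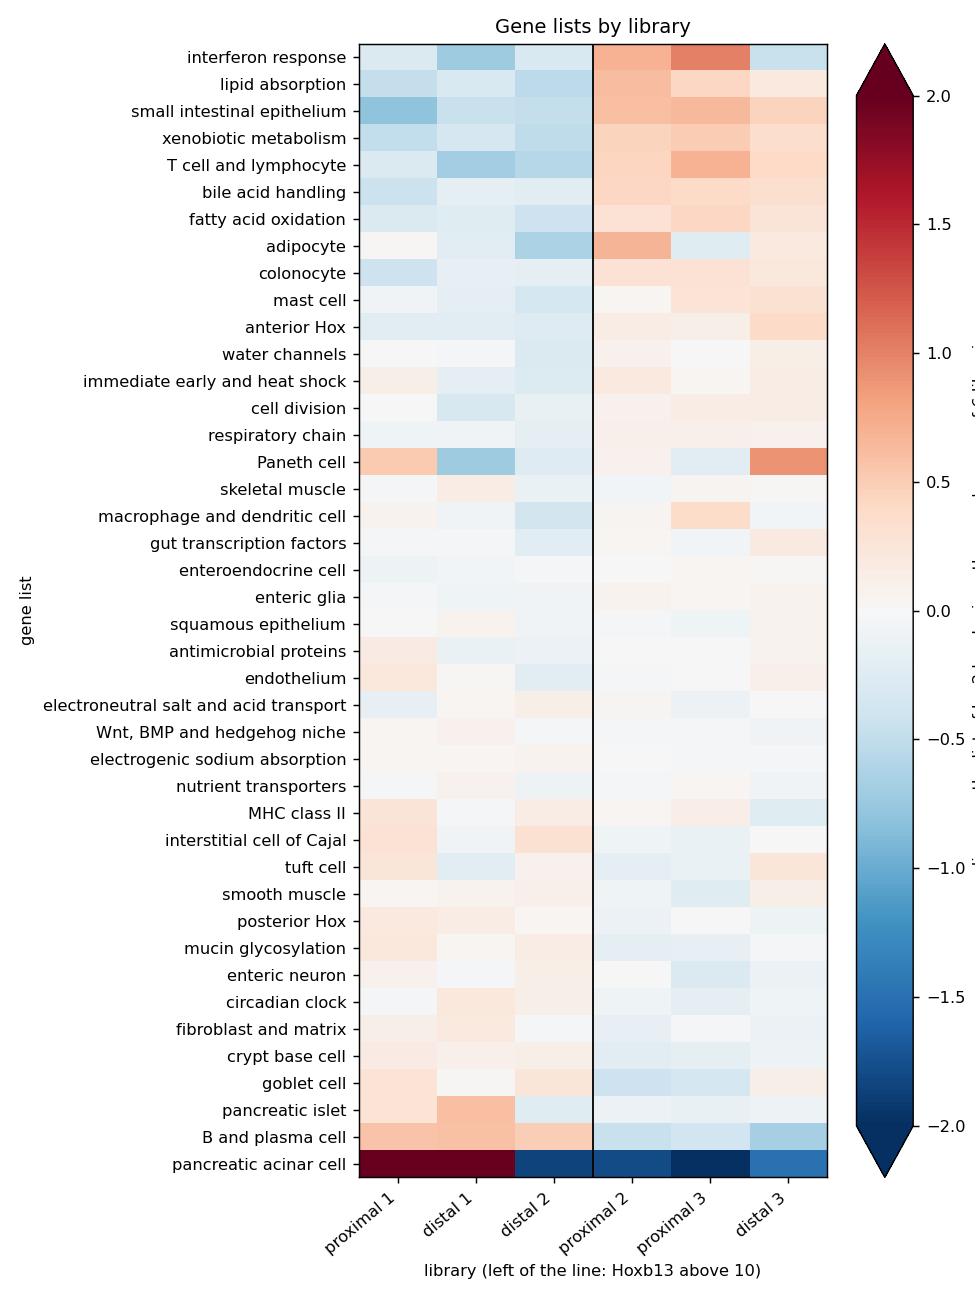
Gene lists (rows) in the 6 libraries (columns): median over a list's genes of the log2 level minus the gene's own mean over the 6 libraries, red above and blue below, with values beyond 2 drawn in the end colours. Left of the line are the libraries with Hoxb13 above 10; B cell genes are red and T cell, bile acid and xenobiotic genes blue there, whereas the pancreatic acinar list is red only in proximal 1 and distal 1 (3.26 and 3.47).

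In the muscle, fibroblast, neuron and endothelial lists 0 genes had a gap of at least 1, beside 2.54% of all genes. In lists of this size 0 is near that share. Of 19 smooth muscle genes 3 had a gap in favour of the high side, the widest 0.04 for the filament protein Des, and 1 in favour of the low side, Pcp4 (-0.90). Of 17 fibroblast genes 7 had a gap in favour of the high side and 0 in favour of the low side, all below 1, led by Fbln1 (0.73). Of 21 enteric neuron genes 8 and 1 did, and of 14 endothelial genes 2 and 2. Shares over all genes were 16.9% for the high side and 23.7% for the low side. The list of interstitial cells of Cajal, the gut's pacemaker cells, had 6 measured genes. Of these, 2 were at least 1 higher on the high side, Thbs4 and Ano1, beside 1.07% of all genes. Another 1 had a gap in favour of the low side, Prkcq (-0.10), and 3 overlapped. Ano1 is also counted in the electroneutral transport list. Of 10 enteric glia genes 7 overlapped and 3 had a gap in favour of the low side, beside 23.7% of all genes. Ednrb, the endothelin receptor of glia and their precursors, had a gap of -1.12, while Gfap (-0.05) and Gfra3 (-0.03) were barely apart.

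Most acinar genes of the pancreas followed neither the sides nor the labels. Of the 16 measured, 14 overlapped between the sides, beside 10809 of all 18193 genes. Of 8 measured islet genes 2 had a gap in favour of the high side, the wider for Ppy (1.21). Another 2, Gcg and Pdx1, had a gap of -0.04 in favour of the low side. Over all genes those shares were 16.9% and 23.7%. Cpa1, the pancreatic carboxypeptidase, read 12.42 in proximal 1 and 12.43 in distal 1, and 5.88 in distal 2, 6.16 in proximal 2, 5.69 in proximal 3 and 5.96 in distal 3. The lipase Cel read 11.74 and 11.90 in the libraries numbered 1 and from 4.55 to 4.99 in the other 4. Both libraries numbered 1 lay at least 1 above the other 4 in 25 genes of the array (0.137%), among them 12 of the 16 measured acinar genes and the islet hormone genes Ins2 and Iapp. The summed acinar signal on the log2 scale was 16.78 and 16.69 in proximal 1 and distal 1, 15.32 in distal 2, and 14.93 to 15.37 on the low side.

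Acinar genes were thus high in 2 of the 3 high-side libraries, and their part in the counts of the sides was not tested. In distal 2, where Hoxb13 read 13.29, Cel, Cpa1 and the proteases Cpb1 (4.26), Prss2 (4.91) and Ctrb1 (4.88) were all below 6.54. Without both libraries numbered 1, distal 2 alone against proximal 2, proximal 3 and distal 3 was apart by at least 1 in 875 genes, 390 higher in distal 2 and 485 lower. Leaving out libraries can only widen a gap, so this count could not fall below 463 and does not measure the acinar part. Cela1 is in the acinar list and was 1.42 apart between the sides, with 13.43 in distal 2. The adipocyte list had 4 of 13 genes with a gap in favour of the low side, beside 23.7% of all genes. In that list 1 gap was of at least 1 (Cidec, -1.57), and Adipoq, its defining hormone gene, overlapped. Keratins Krt5 and Krt14 of squamous epithelium stayed between 6.31 and 7.22 in all 6 libraries, while Sprr1a of the same list had a gap of -2.84.

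The differences inside a side were not used in forming the sides. They set 1 library against 2, so there is no replicate check, and distances are given from the range of the other pair. Proximal 1 lay at least 1 above the range of distal 1 and 2 in 63 genes (0.346%) and at least 1 below it in 15 (0.0824%). Distal 3 lay at least 1 above the range of proximal 2 and 3 in 44 genes (0.242%) and at least 1 below it in 68 (0.374%).

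Genes in which proximal 1 stood highest above its side were Reg2 (3.37), the T cell adaptor Trat1 (2.63), the immunoglobulin genes Igkv6-20 (2.45), Iglv1 (2.30) and Ighm (1.90), the protease inhibitor Spink5 (2.39), the lipase Pnliprp2 (2.29) and Ces1c (1.91). Reg2 read 9.10 in proximal 1 and from 5.27 to 5.73 in the other 5 libraries. It stood lowest below its side in Methig1 (-1.89), Wnt8b (-1.48), Efhb (-1.24), Naaladl1 (-1.23), Slc37a2 (-1.19), Apob (-1.17), Gprin3 (-1.14) and Fcer2a (-1.13). Reg3b, an antibacterial lectin that was higher on the low side, read 9.88 in proximal 1 against 6.78 and 8.04 in distal 1 and 2, and 13.76, 13.96 and 13.54 on the low side.

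The interferon response set distal 3 apart from the other low-side libraries. Distal 3 lay below proximal 2 and 3 in all 30 measured genes, by at least 1 in 17, beside 0.374% of all genes. Usp18, a brake on interferon signalling, read 11.99 and 12.40 in proximal 2 and 3 but 9.63 in distal 3, and 9.22, 7.79 and 9.19 in proximal 1, distal 1 and distal 2. Distal 3 was thus near the high side in this gene, with a gap between the sides of -0.41. Oasl2, an antiviral protein, read 11.84 and 12.32 in proximal 2 and 3, 9.65 in distal 3, and 9.80, 9.53 and 10.41 on the high side, so the sides overlapped.

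Between the sides, 9 of the 30 interferon genes had a gap in favour of the low side and 2 reached 1, Ifit1 (-1.11) and Irf7 (-1.10). The shares over all genes were 23.7% and 1.47%. As labelled, 14 of the 30 had an unadjusted p under 0.05 and 0 passed at an adjusted p of 0.05 (limma). Measured from each gene's 6-library mean, the median of the list was 0.69 and 1.01 in proximal 2 and 3, and lay between -0.71 and -0.28 in the other 4 libraries. Apoa1 (-2.09), Glycam1 (-2.48) and Tex19.1 (-2.04) were also far below the pair in distal 3.

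Among the genes in which distal 3 lay farthest above its side were Pnliprp2 and Mptx1. Pnliprp2 read 12.86 in distal 3 against 8.32 and 7.77 in proximal 2 and 3, and 13.06, 10.77 and 10.33 in proximal 1, distal 1 and distal 2. Mptx1, a pentraxin of gut epithelium, read 13.31 in distal 3 against 9.71 and 9.76, and 14.26, 14.07 and 14.04 on the high side. Ang4, an antimicrobial ribonuclease, read 14.89 against 12.72 and 11.97, and 14.98, 14.18 and 14.74 on the high side.

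Rnase2a (3.54), Pla2g4c (2.93), Clps (2.68), Opcml (1.93) and Slc17a2 (1.91) complete the genes in which distal 3 lay farthest above. Of 22 antimicrobial genes distal 3 was at least 1 above its side in 5 and below it in 1 (Reg3a, -1.93), and proximal 1 was at least 1 above its side in 5 and below it in 0. Itln1, a lectin of goblet and Paneth cells, and Duoxa2, a maturation factor of an epithelial oxidase, were among both sets of 5. Itln1 read 12.42 in proximal 1 and 12.31 in distal 3, and from 8.96 to 10.94 in the other 4 libraries.

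**Figure D5:**
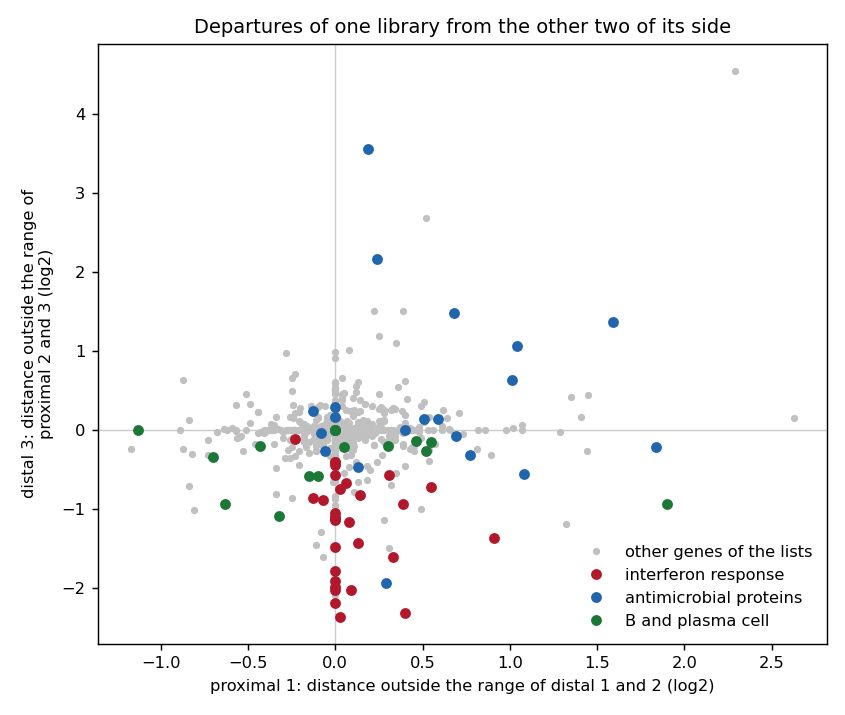
Distance, in log2 units, of proximal 1 outside the range of distal 1 and 2 (horizontal axis) and of distal 3 outside the range of proximal 2 and 3 (vertical axis) for the genes of the lists; 0 means inside the range. Interferon genes lie below 0 on the vertical axis, down to -2.36 for Usp18, and several antimicrobial genes lie above 0 on both axes.

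Differences that ran with the labels on both sides were mostly small. Of 18193 genes, the libraries labelled proximal lay above those labelled distal on both sides in 2492, and below them on both sides in 1777. With 1 library against 2 on each side, the order of values alone gives many such genes. These counts therefore support nothing about the labels. The libraries labelled proximal lay above by at least 0.5 on both sides in 17 genes, and by at least 1 in 1 gene, Clca4b, a surface colonocyte gene. Clca4b read 8.71 in proximal 1 against 7.16 and 7.39 in distal 1 and 2, and 10.81 and 10.77 in proximal 2 and 3 against 9.58 in distal 3. Its sides also stood apart, with a gap of -0.87. Ighm (0.94), the interferon-induced chemokine Cxcl9 (0.91), Clec4n (0.89), Prl6a1 (0.78), the chemokine Ccl12 (0.76), Adgre4 (0.72) and Mtarc1 (0.72) followed, each given by the smaller of its distances on both sides.

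In the other direction 6 genes lay at least 0.5 apart on both sides and 0 by 1. These were Cyp2d13 (-0.94), Rab33a (-0.64), Cyp2d12 (-0.63), the channel Trpc4 (-0.63), Cyp2d34 (-0.61) and Shroom3 (-0.51), with Dio3os (-0.49) and the sodium channel subunit Scnn1a (-0.46) next. Scnn1a read 10.39 in proximal 1 against 10.90 and 11.02 in distal 1 and 2, and 9.75 and 9.73 in proximal 2 and 3 against 10.21 in distal 3. It was therefore higher in distal than in proximal libraries within each side and had a gap of 0.18 between the sides. The 3 Cyp2d genes have similar sequences and may share signal.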

How the data were processed

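Total RNA was measured on 6 arrays. Per the labels' protocols, RNA was amplified to cDNA with NuGEN Ovation kits and labelled with biotin. The deposited values are log2 expression per probe set, made by the authors with RMA in Partek 6.5, per the submitters' processing notes; the background setting is not given in the sources used here. RMA forces every array onto a common distribution, which hides any change in total RNA. Of 45101 probe sets, 64 controls, 932 with several genes and 9160 with no gene listed were left out. The brightest probe set stood for each of 18193 genes, with symbols updated through a RefSeq table (GRCm38.p6).

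The test between labels used limma 3.58.1 under R 4.3.3 (Benjamini-Hochberg over all genes), and the calculation was tested on simulated data. The labels do not say which numbers share an animal, so p-values reflect only how far these libraries spread, which may be technical. The Hoxb13 sides were described without a test. The members, sides and 42 gene lists were chosen with earlier results of these data known. Genes were named by rule: the 12 widest gaps in each direction, Hox genes with a gap of at least 1, up to 4 genes of each list, and 8 in each direction for differences inside sides; markers of each tissue and the contrary members of a list were added after their values were seen.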

Additional observations from a re-analysis of the deposited data

How the results depend on the processing

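The labelled comparison called 0 genes under every alternative run: quantile normalization, median centring, only genes at or above the median level, averaged probe sets, a trended and robust prior, an adjusted p threshold of 0.1, leaving out each library in turn, and leaving out both libraries numbered 1 (chosen after seeing the data). The labelled difference of Hoxb13 kept its direction in each of these that gives a difference. It was 3.46 without both libraries numbered 1. With 1 library left out, it ran from 1.17 without distal 1 to 4.74 without proximal 1 or distal 3. The high side holds more distal than proximal libraries, so none of these omissions could turn the direction. That the direction stayed therefore supports nothing. With the replicate number as a block, limma called 0 genes. The smallest adjusted p was 0.404, and 1065 genes had an unadjusted p under 0.05. The block was an alternative because the labels do not say which numbers share an animal. Deviations from the label means correlated at 0.677, -0.448 and 0.678 between same-numbered libraries, for numbers 1, 2 and 3. Those signs follow the Hoxb13 sides, with number 2 the only number split between them. They therefore cannot show which libraries share an animal. Unadjusted p-values under 0.05 numbered 554 in the full comparison, 1667 without proximal 1, 3103 without distal 3, and 200 to 569 without 1 of the other 4.

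The 463 genes at least 1 apart (195 and 268) became 463 after quantile normalization, 462 after median centring and 424 with the mean of probe sets, with 42.1% higher on the high side as deposited. They became 224 (86 and 138) among the genes at or above the median level, a set of 9099, 7384 (3069 and 4315) for a gap above 0, and 140 (64 and 76) for a gap of at least 2. Leaving out 1 library, which can only widen a gap, gave 492 to 619. Leaving out both libraries numbered 1 gave 875 (390 and 485). Cutoffs of 8 and 12 on Hoxb13 gave the same sides, and a mean over Hoxb13 probe sets was not run because there is only 1. Inside the sides, the 78 genes of proximal 1 became 21, and the 112 of distal 3 became 59, among genes at or above the median level. Of 185 named genes with a gap, 0 turned direction in 1770 values, and 8 values fell to an overlap. Of the 1770 values, 1598 were counted as the same and 172 as moved. Settings that left out a library could not turn a direction, and many of these genes were named for a wide gap. The 0 was therefore partly fixed in advance.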

Other observations

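Of 9 MHC class II genes 3 had a gap in favour of the high side, led by H2-Ob (1.36), a B cell chain that modulates peptide loading, which read 9.22, 9.33 and 9.55 in proximal 1, distal 1 and distal 2 and 7.51, 7.86 and 7.25 in proximal 2, proximal 3 and distal 3. Of 28 Wnt, BMP and hedgehog niche genes 9 had a gap in favour of the high side and 3 in favour of the low side, with the secreted Wnt modulators Sfrp2 (1.01) and Sfrp1 (0.81) and the BMP antagonist Grem1 (0.74) on the high side and the hedgehog ligand Ihh (-0.56) on the low side. Of 17 circadian clock genes 4 had a gap in favour of the high side, led by Per3 (0.40), and 1 in favour of the low side, Cry1 (-0.73), so none reached 1. For comparison, 16.9% of all genes had a gap in favour of the high side and 23.7% in favour of the low side.

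Of 10 mast cell genes 6 had a gap in favour of the low side, among them the mucosal proteases Mcpt2 (-0.95) and Mcpt1 (-0.92), while the connective tissue type protease Cma1 (1.25) went the other way. Of 16 macrophage and dendritic cell genes 2 had a gap, both in favour of the low side, C1qa (-0.61) and Cd68 (-0.22). Of 15 tuft cell genes 2 had a gap in favour of the high side and 3 in favour of the low side, the widest for the succinate receptor Sucnr1 (-1.08). Of 4 measured Paneth cell genes only Mmp7, a protease that activates defensins, parted the sides (-1.99). Immediate early and heat shock genes respond to handling of tissue. Of 20 measured, 1 had a gap in favour of the high side and 6 in favour of the low side, the widest at -0.44 (Ier3). Over all genes the shares were 16.9% and 23.7%, and the macrophage, tuft and immediate early counts lie near or below them. Proximal 1 lay at least 1 above distal 1 and 2 in 3 of the immediate early list, beside 0.346% of all genes. These were Fosb (1.35), Nr4a1 (1.29) and Egr1 (1.02).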
